A study of Mus musculus with 6 samples.

Results

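The voltage-gated and store-operated calcium channels of the vessel wall were described through 10 genes in whole mouse aorta. The genes were taken by symbol from a table of 55487 genes, and each matched 1 row: the pore genes Cacna1c, Cacna1g and Cacna1h, the auxiliary subunit genes Cacnb2, Cacnb3 and Cacna2d1, the store-operated pore genes Orai1 and Orai3, and the calcium sensor genes Stim1 and Stim2. The aorta came from LoxP control mice (titled SM22-Ctrl) and from mice with an Ogt SMC specific knockout (titled SM22-∆Ogt), with 3 libraries of total RNA per group. Ogt encodes O-GlcNAc transferase, which attaches a sugar to nuclear and cytoplasmic proteins. SM22 is another name of transgelin, a smooth muscle protein whose promoter commonly drives Cre in this lineage. Whether the controls also carried Cre, the age of the mice and the number of mice per library are not stated, so p-values measure only the spread between these libraries.

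Smooth muscle contracts when calcium enters the cytoplasm. Voltage-gated channels open on depolarisation: the L-type channel carries the sustained current that sets vascular tone, and T-type channels open at more negative potentials. The pore-forming alpha subunit of the L-type channel is brought to the membrane and tuned by cytoplasmic beta subunits and an extracellular alpha-delta subunit. Store-operated entry works differently: STIM proteins sense the emptying of the endoplasmic reticulum and open ORAI pores in the plasma membrane, a route that is more prominent in proliferating than in contractile smooth muscle cells.

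Of the 10 genes, 1 was called. Cacnb3, a beta subunit gene, rose 2-fold in the knockout aorta, and the other 9 did not pass the test. The Cacnb3 call was lost when control replicate 1 or any 1 knockout library was left out (edgeR adjusted p of 0.0611 to 0.12). The T-type pore gene Cacna1h had the next smallest p, at 48.0% of its control level with an adjusted p of 0.0641, and its knockout libraries all lay below its control libraries. The L-type pore gene Cacna1c, the ORAI genes and the STIM genes were not called. The edgeR quasi-likelihood test with Benjamini-Hochberg adjustment over 16139 genes called 3.45% of them at a threshold of 0.05 (1.9% higher and 1.56% lower), so 1 call among 10 genes stands against that background. All 10 genes passed the filter on low counts.

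Depth and composition differed between libraries. Total counts were 3038782 in control replicate 2 and 11845644 to 18218385 in the other 5. Mitochondrial ribosomal RNA took 10.2% of the counts of control replicate 2 and 0.491% to 0.823% elsewhere. Among the 3 controls that library was the highest for 5 of the 10 genes (Cacna1c, Cacna1g, Cacnb2, Stim1 and Stim2) and the lowest for 4 (Cacnb3, Cacna2d1, Orai1 and Orai3), so results are also given without it. Ogt had 150 to 183.2 CPM (counts scaled to a library size adjusted by the trimmed mean of M values) in controls and 70.9 to 93.3 CPM in knockouts. Values by library are listed in the order of replicates 1 to 3. Tissue identity was checked on marker lists. Over all tested genes, edgeR called 3.45% (5.51% without control replicate 2), and 22.7% had an unadjusted p under 0.05. All 10 smooth muscle markers were detected, with summed levels of 30700 to 37000 CPM in controls and 25600 to 30400 CPM in knockouts, and 1 of the 10, Tagln, was called lower (4 had an unadjusted p under 0.05, and 2 were called lower without control replicate 2). The summed levels were 876 to 1050 against 761 to 1730 CPM for 10 endothelial markers and 162 to 446 against 318 to 397 CPM for 10 macrophage markers, with 0 called in either list (0 at an unadjusted p under 0.05). Fibroblast markers summed to 3110 to 5290 against 3710 to 4330 CPM (0 of 10 called, 2 at an unadjusted p under 0.05). Brown adipocyte markers summed to 289 to 417 CPM in controls and 159 to 211 CPM in knockouts, with 3 of 7 tested genes lower (5 at an unadjusted p under 0.05, and 4 of 8 lower without control replicate 2). The part of these shifts in the results below was not tested. In whole tissue, fewer cells of a type and less RNA per cell cannot be told apart.

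**Figure D1:**
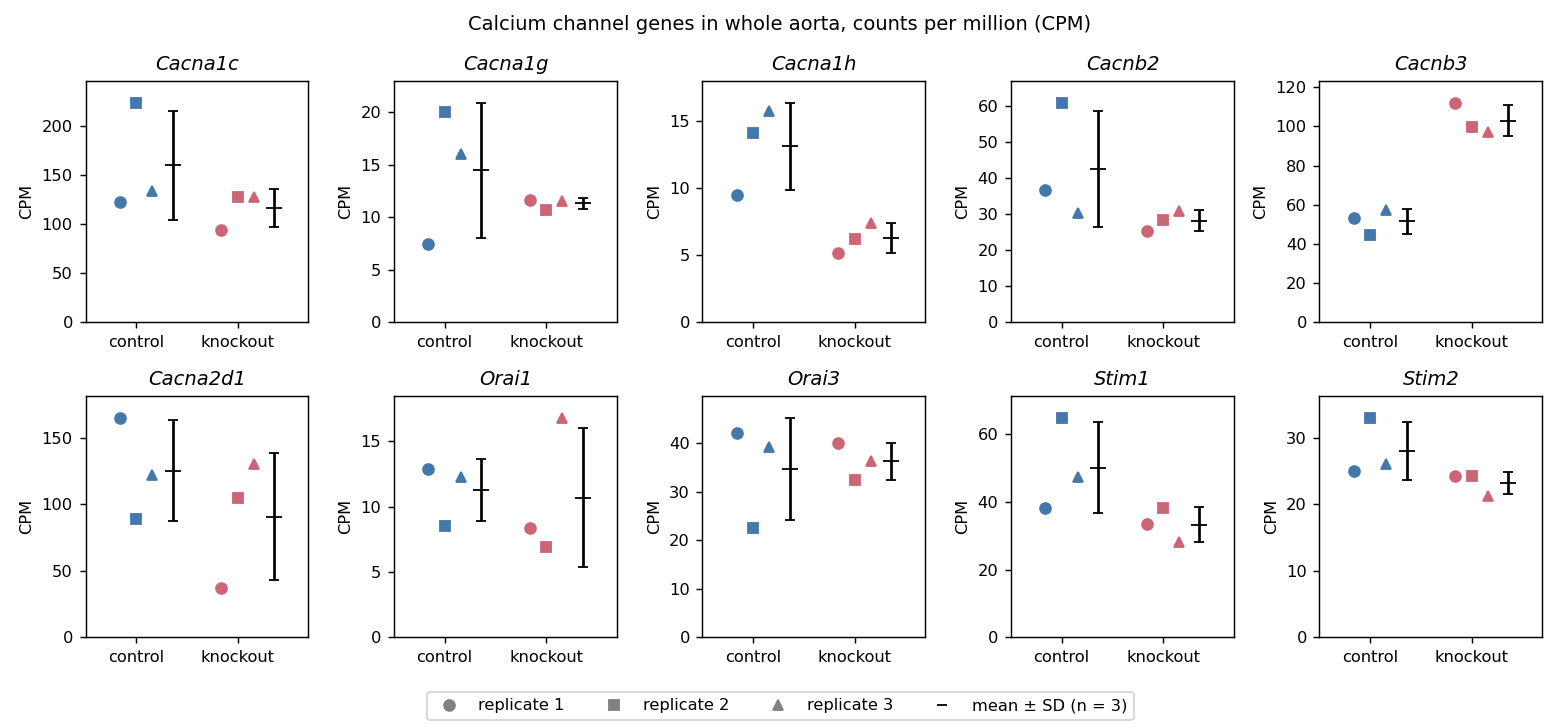
CPM of each calcium channel gene (vertical axes, from 0) in the 3 control and 3 knockout libraries, with the symbol giving the replicate and the black bar the mean ± SD (n = 3). Cacnb3 sits at 44.5 to 57.2 CPM in controls and 97.2 to 112 CPM in knockouts, and for most other genes the 2 groups overlap.

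Cacnb3 (ENSMUSG00000003352; GRCm38 chromosome 15, 98630840 to 98644529, plus strand) encodes a beta subunit that promotes surface expression of voltage-gated calcium channels and shifts their gating. Its libraries held 53.2, 44.5 and 57.2 CPM in the controls against 112, 99.6 and 97.2 CPM in the knockouts. The groups did not overlap, and the lowest knockout library was well above the highest control. The mean went from 51.6 ± 6.50 to 103 ± 8.05 CPM (SD, n = 3). The log2 fold change, knockout minus control, was 0.99 ± 0.13 (SE; 95% interval 0.68 to 1.3), the edgeR adjusted p was 0.0202, and the gene ranked 76 by p among those tested. The size of the change stayed between 0.91 and 1.07 on the log2 scale when any 1 library was left out. The call was kept without control replicate 2 (adjusted p = 0.0183) or control replicate 3 (0.0372). It was lost without control replicate 1 (0.105), knockout replicate 1 (0.119), knockout replicate 2 (0.12) or knockout replicate 3 (0.0611), fits in which between 7 and 33 genes of the whole table were called.

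Because Cacnb3 carried the single call, the stretch before one of its annotated starts is shown. RefSeq's promoter table (build GRCm38.p6) lists 2 starts for Cacnb3. Only the 250 bases before the upstream start, which has the lower position, are printed (chr15:98632078-98632327, plus strand). The printed bases lie inside Cacnb3 as annotated in GENCODE M21, which begins at 98630840, and not in front of the whole gene. Capitals mark the letters GGAAA, the core bound by NFAT factors, and CCAAT, a common promoter element, each on either strand.
Cacnb3 upstream: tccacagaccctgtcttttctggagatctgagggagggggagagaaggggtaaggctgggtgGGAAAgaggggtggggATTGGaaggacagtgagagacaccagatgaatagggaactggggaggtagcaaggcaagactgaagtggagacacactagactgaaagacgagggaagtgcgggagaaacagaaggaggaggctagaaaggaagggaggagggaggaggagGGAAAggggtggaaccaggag
This stretch is purine-rich, with 56% G or C, and holds 2 matches to GGAAA and 1 to CCAAT (here as its complement ATTGG), none overlapping another. Such letters are common: 55.6% of the 32851 promoter entries hold GGAAA and 33.8% hold CCAAT in the same 250 bases. The GC box GGGCGG (in 32.7% of entries), the cAMP response element TGACGTCA (1.55%), the E box CACGTG (6.02%) and the CArG box bound by serum response factor (1.47%) had no match in it. Among the 12 entries of the 8 listed channel genes, GGGCGG occurred in 8, and the last 3 motifs in 0. The letters differ between the 2 Cacnb3 starts. The 250 bases before the other start, with 70.4% G or C, hold 3 matches to GGGCGG, 1 to GGAAA and 0 to CCAAT. Matches are a description of letters, and gene counts do not show which start was used.

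Cacnb2, the other beta subunit gene of the set and the main beta partner of the L-type channel in heart, was not called (ENSMUSG00000057914; chromosome 2, 14603088 to 14987908, plus strand). Its libraries held 36.8, 60.8 and 30.2 CPM in the controls against 25.2, 28.4 and 30.9 CPM in the knockouts. The ranges overlapped narrowly, with knockout replicate 3 just above control replicate 3 and control replicate 2 far above all others. Its log2 fold change was -0.57 ± 0.25 (95% interval -1.15 to 0.02; edgeR adjusted p = 0.232), and without control replicate 2 it was -0.24 (adjusted p = 0.318). Antisense and pseudogene exons on the opposite strand overlap Cacnb2, but these 3 genes had 2 to 19 counts in all libraries together against 2461 for Cacnb2.

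The ratio of Cacnb3 to Cacnb2 within a library, which does not depend on how libraries are scaled, had the largest difference between groups, on the log2 scale, of the 7 subunit ratios examined. The ratio of FPKM values (fragment counts divided by gene length and by library size) was 7.32, 3.71 and 9.59 in the controls against 22.6, 17.8 and 15.9 in the knockouts. Every knockout library exceeded every control library, and the mean log2 ratio was 1.54 higher, or 2.91-fold. A two-sided exact permutation test gave p = 0.1, the lowest value possible with 3 libraries in each group, and 0.35 after Benjamini-Hochberg adjustment over the 7 ratios. Without control replicate 2 the log2 difference was 1.15, the lowest value when any 1 library was left out. The height of the ratio depends on the gene lengths used, while its difference between groups does not. The lengths behind FPKM were 11.71 (Cacnb2) and 1.97 (Cacnb3) times the principal GENCODE M21 transcript. Per kilobase of that transcript, Cacnb3 and Cacnb2 had means of 20.8 and 20.1 CPM in controls, and 41.6 and 13.3 CPM in knockouts.

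**Figure D2:**
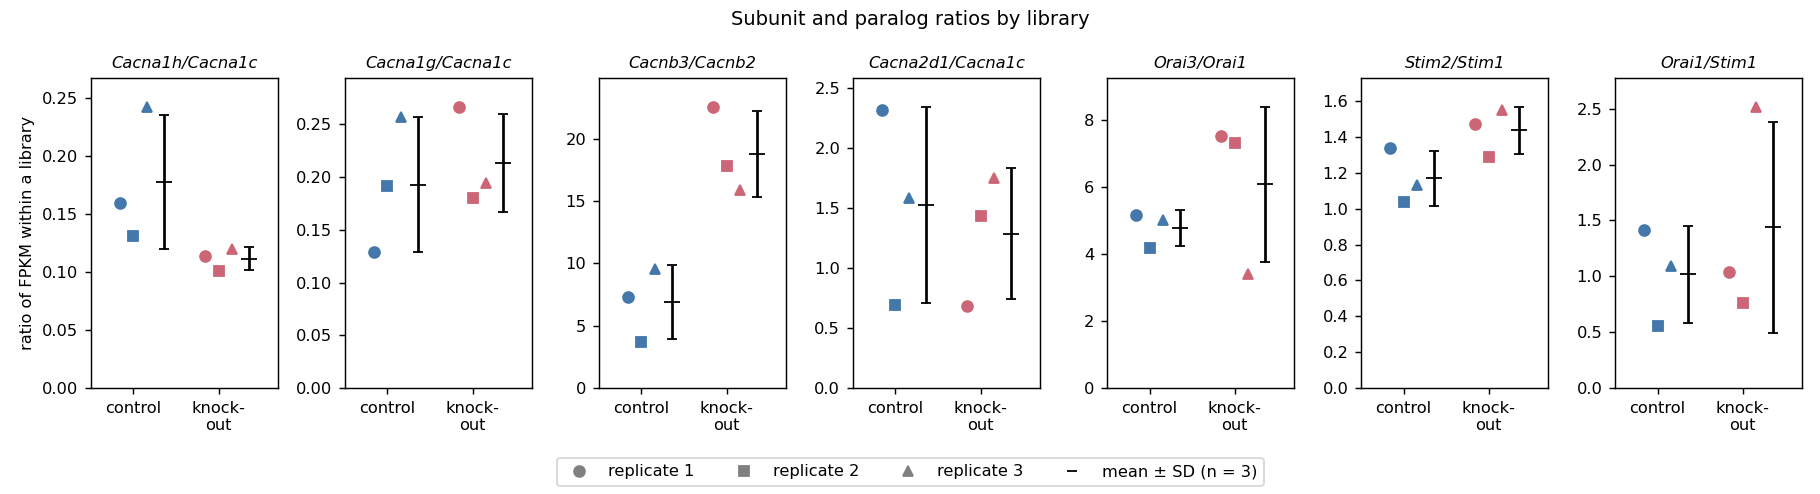
Ratio of the FPKM of 2 genes within each library (vertical axes, from 0) for 7 pairs of subunits or paralogs, with the symbol giving the replicate and the black bar the mean ± SD (n = 3). The Cacnb3 to Cacnb2 ratio is 3.71 to 9.59 in controls and 15.9 to 22.6 in knockouts, and the groups also do not overlap for Cacna1h to Cacna1c. The height of each ratio depends on the gene lengths behind FPKM, while the comparison between groups does not.

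Cacna1c (ENSMUSG00000051331; chromosome 6, 118587240 to 119196890, minus strand), which encodes the pore of the L-type channel in smooth and cardiac muscle and is the target of dihydropyridine drugs, was not called. Its libraries held 123, 224 and 134 CPM in the controls against 94.6, 128 and 128 CPM in the knockouts. Control replicate 2 stood far above the other 5 libraries, which overlapped. The log2 fold change of -0.45 ± 0.25 (95% interval -1.02 to 0.13; edgeR adjusted p = 0.326) went to -0.13 ± 0.15 without that library (adjusted p = 0.627). The interval of the main fit still allows a level reduced by as much as 1.02 on the log2 scale. Its alpha-delta partner Cacna2d1 (ENSMUSG00000040118; chromosome 5, 15934691 to 16374511, plus strand), the gabapentin-binding subunit that helps channels reach the surface, was the most variable of the 10 genes by its standard error. It had 165, 89.0 and 122 CPM in the controls against 37.2, 105 and 130 CPM in the knockouts. Knockout replicate 1 was the lowest library, and the other 2 knockouts lay inside the control range. A log2 fold change of -0.47 ± 0.46 (edgeR adjusted p = 0.582) became -0.09 in the fit without knockout replicate 1 (adjusted p = 0.915). The Cacna2d1 to Cacna1c ratio overlapped between groups (0.688 to 2.32 in controls, 0.681 to 1.75 in knockouts; exact permutation p = 0.7).

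The T-type pore genes had the lowest counts per length of the set, and neither was called. Cacna1h (ENSMUSG00000024112; chromosome 17, 25374285 to 25433783, minus strand) encodes a T-type channel that has been linked to the relaxation of coronary and cerebral arteries. Its libraries held 9.49, 14.1 and 15.7 CPM in the controls against 5.19, 6.23 and 7.42 CPM in the knockouts. All knockout libraries were below all controls, with 38 to 216 counts per control library and 61 to 136 per knockout library behind these values. The means were 13.1 ± 3.23 and 6.28 ± 1.11 CPM, and the log2 fold change was -1.04 ± 0.25 (95% interval -1.62 to -0.47). That difference did not pass the threshold in edgeR (adjusted p = 0.0641, and 0.0794 without control replicate 2), while DESeq2, which called 10% of its genes, called it (adjusted p = 0.0105). Exons of Tpsg1 on the opposite strand overlap 1.62% of the exonic sequence of Cacna1h, and Tpsg1 had 5 counts in all. Relative to Cacna1c, Cacna1h was also lower: the FPKM ratio was 0.131 to 0.243 in controls and 0.101 to 0.120 in knockouts, without overlap (log2 difference -0.62, exact permutation p = 0.1, 0.35 adjusted over the 7 ratios).

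Cacna1g (ENSMUSG00000020866; chromosome 11, 94408391 to 94474198, minus strand), the paralog that contributes to vascular smooth muscle proliferation and to pacemaking in the heart, had 7.42, 20 and 16 CPM in the controls against 11.7, 10.7 and 11.6 CPM in the knockouts. The knockout libraries lay close together inside the wide control range. Its log2 fold change was -0.30 ± 0.33 (95% interval -1.07 to 0.47; edgeR adjusted p = 0.628) and -0.04 without control replicate 2. The Cacna1g to Cacna1c ratio overlapped between groups, at 0.129 to 0.257 in controls and 0.180 to 0.267 in knockouts.

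Neither calcium sensor gene was called. Stim1 (ENSMUSG00000030987; chromosome 7, 102267806 to 102437319, plus strand) encodes the main sensor of store depletion. It had 38.3, 64.9 and 47.4 CPM in the controls against 33.6, 38.3 and 28.1 CPM in the knockouts. Control replicate 1 and knockout replicate 2 coincided, and the other controls were higher than every knockout library. The log2 fold change was -0.57 ± 0.21 (95% interval -1.06 to -0.08; edgeR adjusted p = 0.167) and -0.36 without control replicate 2 (adjusted p = 0.235). Stim2 (ENSMUSG00000039156; chromosome 5, 53998499 to 54121057, plus strand), a sensor that responds to smaller losses of stored calcium, had 25.0, 33.0 and 26.1 CPM in controls and 24.2, 24.2 and 21.3 CPM in knockouts. The groups were adjacent without overlapping, and the log2 fold change was -0.26 ± 0.15 (edgeR adjusted p = 0.356) and -0.13 without control replicate 2. The Stim2 to Stim1 ratio was 1.04 to 1.34 in controls and 1.29 to 1.55 in knockouts (exact permutation p = 0.2).

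The ORAI pore genes showed no difference that the test could detect. Orai1 (ENSMUSG00000049686; chromosome 5, 123015074 to 123030456, plus strand), the pore that STIM1 opens, had 12.9, 8.53 and 12.3 CPM in the controls against 8.34, 6.94 and 16.8 CPM in the knockouts. Knockout replicate 3 was the highest and knockout replicate 2 the lowest of all 6 libraries. The control replicate 2 value rests on 23 counts. The log2 fold change was -0.10 ± 0.35 (95% interval -0.91 to 0.71; edgeR adjusted p = 0.896), and leaving out 1 library at a time moved it between -0.58 and 0.14. Orai3 (ENSMUSG00000043964; chromosome 7, 127769815 to 127775150, plus strand), a mammalian paralog that also joins arachidonate-regulated channels, had 42.2, 22.6 and 39.2 CPM in controls and 40.0, 32.4 and 36.4 CPM in knockouts. Control replicate 2 was the lowest library, and the knockouts lay inside the control range. Its log2 fold change of 0.03 ± 0.22 (95% interval -0.48 to 0.55; edgeR adjusted p = 0.951) became -0.16 without that library. The Orai3 to Orai1 ratio was 4.16 to 5.15 in controls and 3.39 to 7.52 in knockouts, and the Orai1 to Stim1 ratio was 0.553 to 1.41 and 0.761 to 2.52 (exact permutation p = 0.6 for each).

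**Figure D3:**
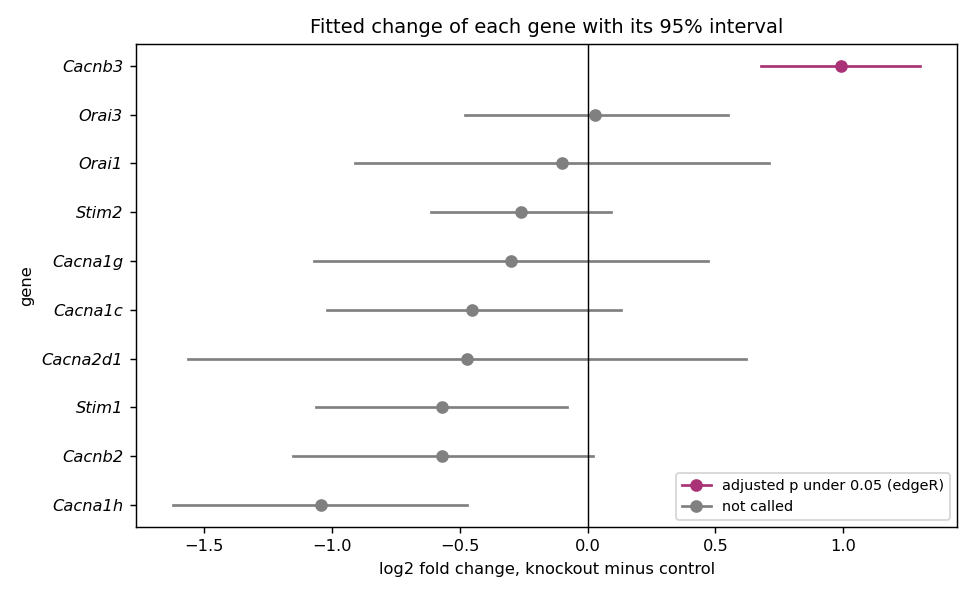
Fitted log2 fold change, knockout minus control (horizontal axis), of each gene with its unadjusted 95% interval from edgeR. Cacnb3, at 0.99, is the 1 gene with an adjusted p under 0.05, and the intervals of Cacna1h and Stim1 lie below 0 without a call.

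As a set, 8 of the 10 genes had negative and 2 had positive log2 fold changes, with a median of -0.37 against -0.01 over all 16139 genes, of which 8280 were negative. Without control replicate 2 the median of the set was -0.19, with 9 negative values and again 1 call, where 5.51% of all genes tested were called. Groups did not overlap for 3 of the 10 genes (Cacnb3, Cacna1h and Stim2), close to the 31.8% of all tested genes. An unadjusted p under 0.05 was reached by 3 (Cacnb3, Cacna1h and Stim1), against 22.7% of all genes.

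Levels can be compared between genes only per length, and here the order depended on the length used. The gene lengths behind the deposited FPKM were 1.26 (Orai3) to 11.71 (Cacnb2) times the principal GENCODE M21 transcript of the same gene. By FPKM, control means ran from 14.2 ± 5.36 for Orai3 and 10.7 ± 2.30 for Cacnb3 through 6.65 ± 2.49 for Cacna2d1, 4.72 ± 1.09 for Cacna1c, 3.44 ± 0.173 for Stim2, 3.0 ± 0.518 for Stim1, 2.91 ± 0.851 for Orai1 and 1.68 ± 0.450 for Cacnb2 to 0.917 ± 0.356 for Cacna1g and 0.815 ± 0.210 for Cacna1h (SD, n = 3). In that order the neighbours whose control libraries did not overlap were Cacna1c and Stim2, and Cacnb2 and Cacna1g. By CPM per kilobase of the principal transcript, Cacna1c came first in controls at 24.3 ± 8.41, followed by Cacnb3 (20.8 ± 2.62), Cacnb2 (20.1 ± 7.61), Orai3 (17.4 ± 5.29), Cacna2d1 (17.1 ± 5.21) and Stim1 (12.3 ± 3.31). The first 6 overlapped their neighbours, and Orai1 (6.0 ± 1.26) and Stim2 (5.68 ± 0.879) lay apart below them, and Cacna1g (1.78 ± 0.791) and Cacna1h (1.59 ± 0.392) again below those. On both scales the T-type genes were lowest in both groups, and in knockouts Cacnb3 was highest in every library, with 20 to 22.8 FPKM and 39.2 to 45.2 CPM per kilobase.

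**Figure D4:**
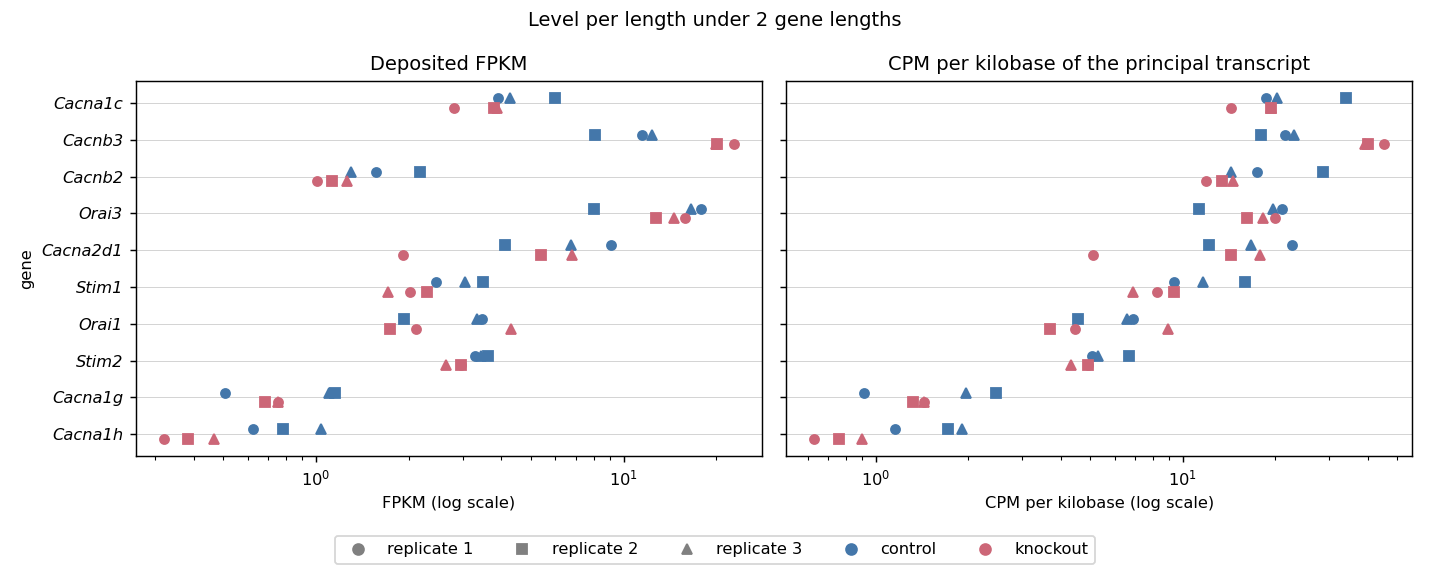
Level of each gene per length in each library, as deposited FPKM (left) and as CPM per kilobase of the principal transcript (right), on log axes, with blue for control, red for knockout and the symbol for the replicate. Cacna1g and Cacna1h are lowest on both scales, while Cacna1c and Cacnb2 rank higher on the right.

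The remaining voltage-gated subunit genes were few in this tissue. Of 20 other subunit genes listed, 5 passed the filter, and 1 of these was called higher, 0 lower and 4 were not called (median log2 fold change -0.28), where 3.45% of all tested genes were called. An unadjusted p under 0.05 was reached by 3 of the 5 (22.7% of all genes), and the groups did not overlap for 3 (31.8% of all genes). The one that rose was a further beta subunit gene, Cacnb1, known as the partner of the skeletal muscle channel and also expressed elsewhere. It had 15.1, 16.3 and 16.6 CPM in controls and 31.5, 28.2 and 23.9 CPM in knockouts, without overlap (log2 fold change 0.80 ± 0.15, edgeR adjusted p = 0.0404). That call held when control replicate 2 was left out (0.0387), and was lost on leaving out any other library (0.0694 to 0.186). The skeletal muscle pore gene Cacna1s and its gamma subunit gene Cacng1 had 0 counts in all 6 libraries, which allows up to 1.11 CPM in control replicate 2 and 0.164 to 0.255 CPM elsewhere, counting error only. Skeletal muscle markers summed to 5.56 to 12.6 CPM in controls and 46.9 to 69.1 CPM in knockouts, with Ckm the 1 of 4 tested that was called higher. Without Ckm, the other 9 markers summed to 2.6 to 8.87 CPM in controls and 4.41 to 7.91 CPM in knockouts, which overlap. The part of the Ckm difference in the Cacnb1 result was not tested. The neuronal alpha-delta gene Cacna2d3 had 5.29 to 6.67 CPM in controls and 2.18 to 3.12 CPM in knockouts (log2 fold change -1.17 ± 0.25). It did not pass in edgeR (adjusted p = 0.052), while DESeq2 (0.0124) and limma-voom (0.0407) called it. The second L-type pore gene Cacna1d had 22.1, 50.4 and 25.4 CPM in controls and 18.2, 17.8 and 19.0 CPM in knockouts (adjusted p = 0.174). Cacnb4 (means of 1.12 and 1.83 CPM) and the P/Q-type pore gene Cacna1a (11.3 and 8.76 CPM) had overlapping groups.

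Among 19 tested regulators of voltage-gated channels, 1 was higher, 0 were lower and 18 were not called (median -0.12), where 3.45% of all genes were called. Of the 19, 6 had an unadjusted p under 0.05 and 5 had groups that did not overlap, against 22.7% and 31.8% of all genes. Bin1, a membrane-bending protein that anchors L-type channels at muscle membrane folds, rose from 41.8 ± 2.98 to 72.3 ± 10.5 CPM (0.78 ± 0.14 on the log2 scale; adjusted p = 0.0354 in edgeR). This call, too, held when control replicate 2 was dropped (0.0385) and was lost when any other library was (0.0593 to 0.165). The calmodulin gene Calm3 (300 ± 26.7 and 392 ± 16.8 CPM, adjusted p = 0.119), the channel-inhibiting small GTPase gene Rem1 (3.35 ± 0.770 and 5.47 ± 0.817 CPM, 0.144) and the adaptor gene Stac (10.5 ± 0.527 and 13.8 ± 0.839 CPM, 0.166) had higher knockout values in every library without passing the test. The kinase anchor gene Akap12 had 88.8 ± 28.6 and 58.6 ± 6.51 CPM (0.184).

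Of 17 tested genes of store-operated and TRP calcium entry, edgeR called 0 (median 0.15), where 3.45% of all genes were called. Groups did not overlap for 5 of the 17, against 31.8% of all genes. An unadjusted p under 0.05 was reached by 1, against 22.7% of all genes. That gene was the polycystin channel gene Pkd2, with 177 ± 3.83 and 144 ± 5.33 CPM (adjusted p = 0.147). Orai2, the remaining ORAI pore gene, had 4.19 ± 0.262 and 5.80 ± 0.875 CPM (adjusted p = 0.238). The scaffold gene Homer1 had 9.13 and 15.7 CPM (0.241), and the membrane contact site gene Esyt1 had 185 and 215 CPM (0.292).

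Calcium entering through these channels activates calcineurin, a phosphatase that sends NFAT factors to the nucleus, and kinases such as GSK3 export them again. Of 15 tested genes of that pathway, 1 was higher, 2 were lower and 12 were not called (median -0.06), against 1.9% of all genes higher and 1.56% lower. Of the 15, 4 had an unadjusted p under 0.05 and 6 had groups that did not overlap, against 22.7% and 31.8% of all genes. Nfatc2 had 5.57, 4.08 and 11.5 CPM in the controls against 31.3, 32.6 and 43.7 CPM in the knockouts, and rose by 2.26 ± 0.35 on the log2 scale (edgeR adjusted p = 0.0286). Nfatc4 had 49.7, 45.6 and 40.7 CPM in controls and 24.1, 24.3 and 25.5 CPM in knockouts, and its log2 fold change was -0.88 ± 0.12 (adjusted p = 0.0219). The 2 NFAT genes thus moved in opposite directions, each without overlap between groups. Gsk3b fell from 103 ± 25.6 to 35.4 ± 13 CPM (-1.53 ± 0.30 on the log2 scale, adjusted p = 0.0447), and its call was lost without any 1 of the 6 libraries (0.0657 to 0.141). Those of Nfatc2 and Nfatc4 were kept without control replicate 2 (0.0385 and 0.0238) or control replicate 3 (0.00976 and 0.038) and lost without any other. The calcineurin subunit gene Ppp3cb (69.1 ± 9.22 and 51.2 ± 5.07 CPM, 0.124) and the calcineurin inhibitor gene Cabin1 (151 ± 9.72 and 172 ± 2.05 CPM, 0.347) were not called. Without control replicate 2, Ppp3cb had an adjusted p of 0.0496.

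**Figure D5:**
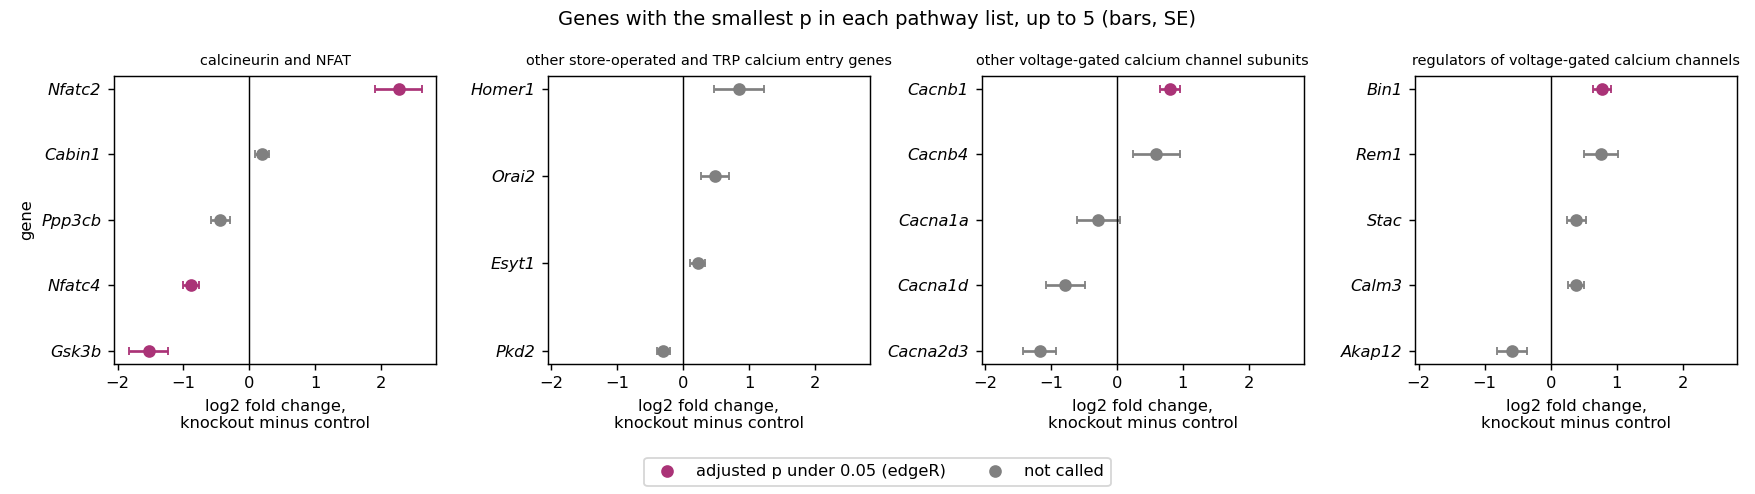
Log2 fold change, knockout minus control (horizontal axes), with its SE for up to 5 genes with the smallest p in each of 4 pathway lists. Nfatc2, Nfatc4, Gsk3b, Cacnb1 and Bin1 have an adjusted p under 0.05 in edgeR, and the list of store-operated and TRP entry has 0 such genes.

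The genes whose levels followed Cacna1c most closely over the 6 libraries were Acvr1 (Pearson r = 0.991), Sos2 (0.990) and Srpk2 (0.989), among 9497 genes with a mean of at least 10 CPM. For Stim1 they were Ifrd1 (0.988), Akap12 (0.984) and Fer (0.984). All 6 had their highest value in control replicate 2, as did Cacna1c and Stim1, and the correlations were not recomputed without it. Of the 6, 0 were called between groups, with edgeR adjusted p-values of 0.184 to 0.731. Such values were common: 284 of the 9497 genes had an r over 0.9 with Cacna1c, and 149 with Stim1.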

How the data were processed

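Per the file headers, the deposited table held a whole-number read count and an FPKM value per gene for each of 6 libraries, and the counts were analysed as the authors deposited them. Over 7705 genes the FPKM the authors deposited equalled count over 1 gene length and the library total, within a relative 1.4e-05. The submitters' processing notes name CASAVA 1.8, HISAT2, SAMtools 1.3.1, edgeR and the build GRCm39, yet 99.4% of 55141 shared gene identifiers had the GRCm38 positions of GENCODE M21, so positions are given as GRCm38. No source used here names the counting program or its strand setting, so reads of overlapping antisense genes cannot be separated. For Cacna1c the table's end differs from that of GENCODE M21.

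Analysis used R 4.3.3. Low counts were removed with filterByExpr, libraries were scaled by TMM (trimmed mean of M values), and the test was edgeR 4.0.16 (robust glmQLFit, then glmQLFTest). The SE is the log2 fold change over the square root of F. Alternatives were DESeq2 1.42.0, limma 3.58.1 (voom), DESeq2 size factors, no filter, a replicate block and leaving out each library. Steps were tested on simulated data. The channel genes and lists were chosen with earlier results of these data known. A gene of the store-operated list that the naming rule takes is not reported here. Named were the channel genes, Ogt, the 5 smallest p and all calls per pathway list, and the 3 genes closest to Cacna1c and Stim1. Tagln, Ckm, Actc1, Tnnt2, Tpsg1, Cacna1s and Cacng1 fall outside this rule and were named after their values were seen. The marker sum without Ckm was also added after the data were seen. Within a group, pairs of libraries gave chi-square means of 14.08 to 136.2 per gene with at least 10 counts, and none was treated as a copy.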

Additional observations from a re-analysis of the deposited data

How the results depend on the processing

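Over all genes, edgeR called 557 (306 higher, 251 lower), DESeq2 1490 of 14845 genes with an adjusted p, and leaving out 1 library gave 7 to 911. Among the 10 channel genes the 1 call became 2 with DESeq2, which added Cacna1h, and 0 to 1 when 1 library was left out. DESeq2 size factors, limma-voom and no filter on low counts kept the 1 call, Cacnb3. With the replicate number as a block, 28 genes and 0 channel genes were called (Cacnb3 log2 fold change 0.997, adjusted p = 0.0682). Under the same block the edgeR calls of Cacnb1 (adjusted p = 0.121), Bin1 (0.104), Nfatc4 (0.0888) and Gsk3b (0.126) were lost. That of Nfatc2 was kept (0.0261). Same-numbered libraries had correlations of 0.052, 0.086 and -0.06 in their deviations from the group means, and control replicate 3 correlated best with knockout replicate 1 (0.097). The labels state no pairing. With 3 libraries per group, these correlations cannot show whether same-numbered libraries shared a batch. Over all these alternatives the log2 fold change of Cacnb3 was 0.905 to 1.068 and that of Cacna1h -1.256 to -0.858, while leaving out 1 library moved Cacna1c between -0.611 and -0.132, Cacna1g between -0.655 and -0.041 and Cacna2d1 between -0.817 and -0.09. The sign of Orai1, Orai3 and the Cacna1g to Cacna1c, Cacna2d1 to Cacna1c and Orai1 to Stim1 ratios changed when some libraries were left out, as did that of Cacna1a without control replicate 2 (0.126 against -0.28). Control replicate 2, with 23 to 604 counts per channel gene, limits the precision of every control mean.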

Other observations

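The shares of the beta subunit messages were summarised by library, a description chosen after the values were seen and given without a test. Shares depend on each other, so a higher share of 1 gene lowers those of the rest. Cacnb2 by itself was not called (edgeR adjusted p = 0.232). Of the raw counts of the 4 beta subunit genes, which favour longer genes, Cacnb3 took 50.1%, 36.4% and 54.2% in control replicates 1 to 3 (exact 95% intervals 47.6% to 52.6%, 31.2% to 41.8% and 51.6% to 56.7%, counting error only). In knockout replicates 1 to 3 it took 65.7% (63.6% to 67.8%), 63.2% (61.4% to 65.0%) and 63.1% (61.3% to 64.9%). Cacnb2 took 37.7% ± 10.9 in controls and 17.6% ± 2.72 in knockouts (SD, n = 3), Cacnb1 14.4% ± 1.27 and 17.3% ± 1.55, and Cacnb4 1.03% ± 0.422 and 1.14% ± 0.204. The shares of Cacnb3 and Cacnb2 did not overlap between groups, while those of Cacnb1 and Cacnb4 did.

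Markers of other cell types that the text above leaves out summed as follows in controls and knockouts. White adipocyte markers had 1920 to 2500 and 2020 to 2360 CPM (0 of 8 called, 2 at an unadjusted p under 0.05 in edgeR). Cardiac muscle markers had 92.2 to 315 and 99.7 to 126 CPM (1 of 7 called, 2 at an unadjusted p under 0.05). Of these 2, Actc1 was called higher, and Tnnt2 was lower without a call (log2 fold change -0.49, edgeR adjusted p = 0.164). Schwann cell markers had 17.3 to 38.9 and 27.1 to 45.9 CPM (0 of 7 called, 1 at an unadjusted p under 0.05). Neuron markers had 9.64 to 13.8 and 12.4 to 18.7 CPM (0 of 2 called) and T cell markers 1.85 to 2.11 and 3.35 to 6.81 CPM, none of the latter passing the filter. Among all tested genes, edgeR called 3.45%, and 22.7% had an unadjusted p under 0.05.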
